A study of Mus musculus with 6 samples.

Results

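The genes described here were 10 AP-1 and immediate early genes, read in the liver. These were the FOS and JUN members of the transcription factor AP-1 (*Fos*, *Fosb*, *Fosl1*, *Fosl2*, *Jun*, *Junb* and *Jund*), *Atf3*, *Egr1* and *Ier3*. They were chosen by symbol, as a family and its closest companions. Each had 1 entry among the 25403 genes listed, and all 10 passed the filter on low counts that kept 14496 genes for testing. Liver RNA was sequenced from 3 livers labelled WT, whose genotype is given as wild-type C57BL6/J, and 3 labelled *Themis*-KO, given as *Themis* KO and described in the study as a whole-body knockout. THEMIS is an adaptor protein of T cell receptor signaling. All 6 livers came from mice on a MASH diet (metabolic dysfunction-associated steatohepatitis; the treatment label reads AMYLIN liver NASH diet) with 40 kcal% of fat, 20 kcal% of fructose and 2% cholesterol. Feeding began at an age between 10 and 12 weeks and lasted 3 months. No chow-fed livers were part of the comparison, so each difference below is between genotype labels on the same diet. The whole-body deletion covers every cell type of the liver, and bulk RNA does not separate them.

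The libraries held between 20679642 and 25649767 estimated counts. The level of a gene is given as CPM, the counts of the gene per 1e6 counts of the library after scaling by TMM, a method that assumes most genes are unchanged. *Themis* itself was at 8.07, 25.6 and 12.0 CPM in WT livers 1, 2 and 3, and at 8.63, 7.74 and 9.97 CPM in *Themis*-KO livers 1, 2 and 3. The 2 groups overlapped (log2 fold change -0.79, SE 0.38, adjusted p = 0.199, edgeR), so the *Themis* counts do not check the labels, and the groups are named below as the labels name them. The livers also fell into 2 mitochondrial types. The nuclear copy *Gm28438* took 96.6% and 96.8% of the joint counts of *Gm28438* and *mt-Nd3* in WT livers 1 and 2. In the other 4 livers it took between 2.2% and 3.26%, so this split follows the genotype labels except in WT liver 3. Its part in the differences below was examined only by a fit with the type as a factor. WT livers 1 and 2 were the only livers of their type. That fit therefore sets the *Themis*-KO livers against WT liver 3 alone, and each fold change given below for it rests on that WT liver.

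AP-1 is a dimer of basic leucine zipper proteins. JUN proteins pair with each other or with FOS proteins, FOS proteins need a JUN partner, and ATF3 pairs with JUN proteins or with itself. The dimers bind a short palindromic element known as the TPA response element or its longer relative, the cyclic AMP response element. Immediate early genes are transcribed within minutes of a stimulus without new protein synthesis, through kinases such as ERK, JNK and p38 acting on transcription factors already present, and their transcripts are short-lived. In the liver, AP-1 is known from regeneration after partial hepatectomy, from the acute stress response and from fibrosis and inflammation.

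The DNA just before the start sites was searched for short elements bound by AP-1 and related factors. RefSeq (GRCm38.p6) gave a promoter window for 8 of the 10 genes. The 250 bases before the start are printed for 3 genes from the JUN, FOS and ATF branches, because each holds an element of the AP-1 and CREB type, shown in capitals. The windows lie at chr4:95052223-95052472 on the minus strand for *Jun*, at chr1:191183334-191183583 on the minus strand for *Atf3* and at chr12:85473640-85473889 on the plus strand for *Fos*.
Jun: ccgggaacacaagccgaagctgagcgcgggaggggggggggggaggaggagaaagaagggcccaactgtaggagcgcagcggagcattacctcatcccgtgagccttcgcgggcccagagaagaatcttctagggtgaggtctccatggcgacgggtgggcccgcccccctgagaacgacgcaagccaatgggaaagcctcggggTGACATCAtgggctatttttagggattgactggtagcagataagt
Atf3: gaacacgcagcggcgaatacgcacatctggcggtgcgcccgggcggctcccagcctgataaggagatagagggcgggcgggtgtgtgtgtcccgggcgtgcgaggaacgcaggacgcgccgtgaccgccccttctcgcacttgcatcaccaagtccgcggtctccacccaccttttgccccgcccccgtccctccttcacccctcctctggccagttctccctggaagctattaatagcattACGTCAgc
Fos: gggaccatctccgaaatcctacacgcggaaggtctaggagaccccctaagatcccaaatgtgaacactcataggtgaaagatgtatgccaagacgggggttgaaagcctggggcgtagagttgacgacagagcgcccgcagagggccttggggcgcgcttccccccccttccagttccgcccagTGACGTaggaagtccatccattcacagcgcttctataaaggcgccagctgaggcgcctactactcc
In *Jun* the capitals mark TGACATCA, between 45 and 38 bases before the start, an AP-1 element that differs by a base from the cyclic AMP response element. In *Fos* they mark TGACGT, between 66 and 61 bases before the start, and in *Atf3* its reverse complement, between 8 and 3 bases before the start. The *Atf3* window belongs to the RefSeq start, which lies 34706 bases from the outermost *Atf3* start in GENCODE vM21. For *Jund* and *Fosl2*, whose windows were searched but are not printed, this distance is 1210 and 671 bases. For the other genes with a window it is at most 30 bases. TGACGT is part of the full cyclic AMP response element and was added to the search after these windows had been read.

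The motifs below were searched on both strands of the 8 windows and of all 32851 RefSeq mouse windows. TGACATCA was in 2.93% of all windows and, among the 8 genes, in that of *Jun*. TGACGT was in 6.47% of all windows and in those of *Atf3* and *Fos*. The consensus TPA response element TGACTCA (4.46% of all windows), the full cyclic AMP response element TGACGTCA (1.55%) and the CArG box bound by SRF (1.47%) were in none of the 8. The EGR element (GCGGGGGCG or GCGTGGGCG, 3.06% of all windows) was in those of *Fosb* and *Fosl2*, and the kappa B motif (7.25%) in those of *Fos*, *Fosb*, *Fosl2* and *Ier3*. These are matches of letters in a short window, with no measurement of binding.

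*Jun*, *Jund* and *Atf3* transcripts rose in the livers labelled *Themis*-KO, and the other 7 genes did not pass the test. *Jun* was 2.00-fold, *Jund* 1.75-fold and *Atf3* 4.30-fold as high in mean CPM as in WT livers, and these 3 of the 10 genes passed an adjusted p of 0.05 in the upward direction, where 4.97% of all genes tested did. None fell, where 4.14% of all genes did. The fitted log2 fold change was above 0 in all 10, against 51.0% of all genes, and its median was 1.27, against 0.0095 over all genes tested. With the mitochondrial type as a factor the median of the 10 was 0.71, against 0.020 over all genes. Without adjustment, 8 of the 10 had p under 0.05 in the upward direction and none in the downward direction, where 16.8% and 13.9% of all genes did. In 5 of the 10 (*Fos*, *Fosb*, *Jun*, *Jund* and *Atf3*) the lowest *Themis*-KO liver stood above the highest WT liver, as in 17.7% of all genes. No gene of the 10 showed the reverse, as 16.9% of all genes did.

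The calls depended on single livers. Leaving out *Themis*-KO liver 3, the lowest of its group for every one of the 10 genes, brought 9 of the 10 past the threshold (15.0% of all genes), and leaving out WT liver 3 kept *Jun*, *Jund* and *Atf3* past it (3.24%). None of the 10 passed without WT liver 1 (0.0809% of all genes), WT liver 2 (0.128%), *Themis*-KO liver 1 (0.0543%) or *Themis*-KO liver 2 (0.183%). At an unadjusted p under 0.05, the genes that were higher in those 4 fits numbered 7 (11.8% of all genes), 5 (12.3%), 5 (10.9%) and 7 (11.8%), and in the fits without WT liver 3 and *Themis*-KO liver 3 they numbered 8 (15.6%) and 9 (21.5%). DESeq2 on all 6 livers called 7 of the 10 higher (8.78% of all genes). With the mitochondrial type as a factor, edgeR called none of the 10 and no higher gene anywhere, and 3 of the 10 (*Fosb*, *Jun* and *Atf3*) were higher at an unadjusted p under 0.05, against 5.40% of all genes. *Egr1* was lower in that fit at an unadjusted p of 0.0448, as 5.11% of all genes were.

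**Figure D1:**
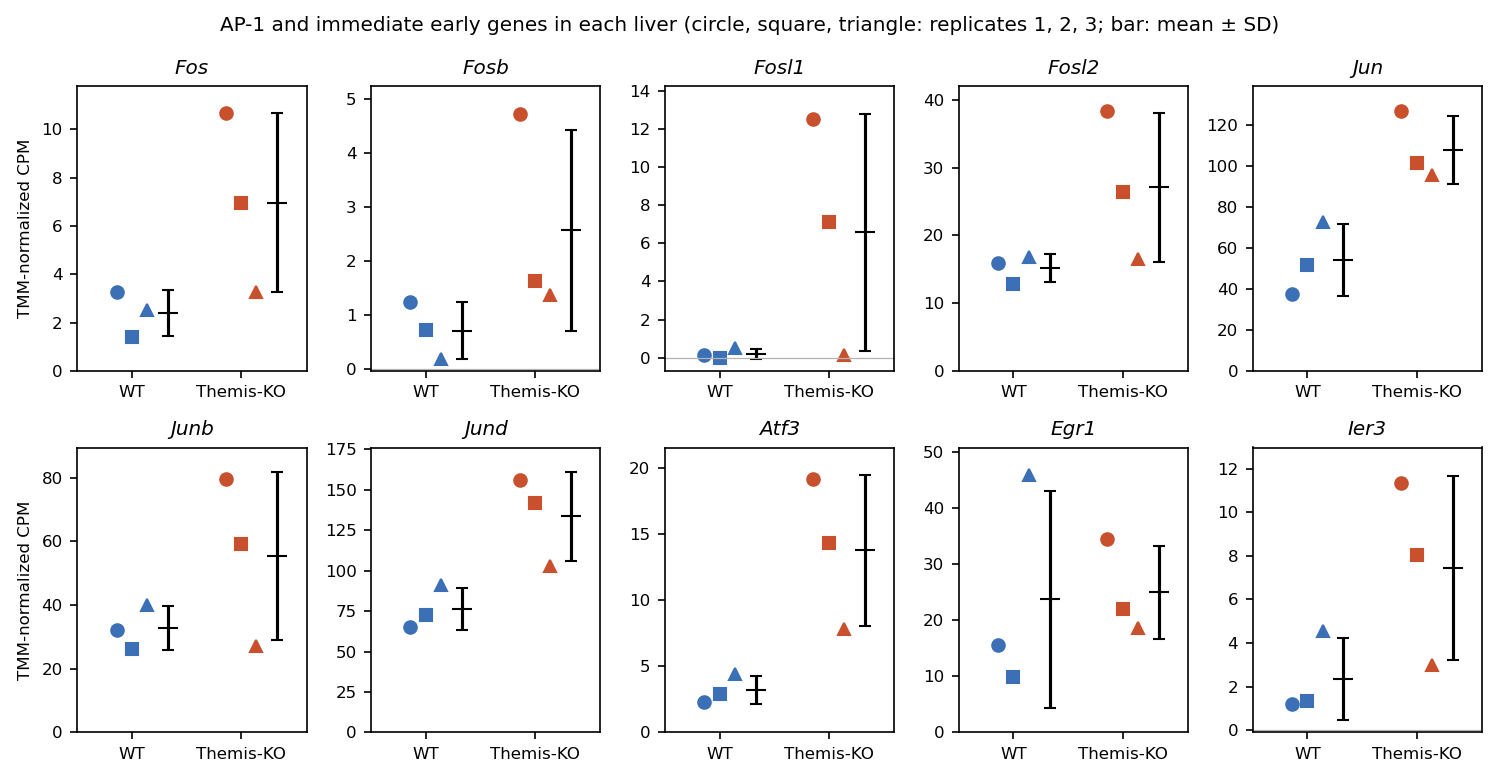
Level of each gene in CPM (linear vertical axes that include 0, 1 panel per gene) in the livers labelled WT and Themis-KO; each symbol is a liver and the bar gives the mean and SD of 3 livers. Themis-KO liver 3 is the lowest of its group in all 10 panels, and the groups do not overlap for *Fos*, *Fosb*, *Jun*, *Jund* and *Atf3*.

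JUN proteins are the partners that FOS proteins share. *Jun* (ENSMUSG00000052684; chromosome 4, 95049034 to 95052222, minus strand, GRCm38) is a gene of 1 exon that encodes c-JUN, the main target of JNK. Its level was 37.6, 51.7 and 72.4 CPM in WT livers 1, 2 and 3, and 126.5, 101.1 and 95.6 CPM in *Themis*-KO livers 1, 2 and 3. Every *Themis*-KO liver was above every WT liver, and the spread was similar on both sides (53.9 ± 17.5 against 107.7 ± 16.5 CPM, SD, n = 3). The fitted log2 difference was 1.00 (SE 0.23, adjusted p = 0.0399, edgeR), and it lay between 0.79 and 1.27 when any 1 liver was left out. With the mitochondrial type as a factor it was 0.57 (adjusted p = 0.466).

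*Jund* (chromosome 8, 70698949 to 70700616, plus strand), another gene of 1 exon, encodes the JUN protein that is present in resting cells. Its level was 65.4, 72.7 and 90.9 CPM in the WT livers and 156, 142 and 103 CPM in the *Themis*-KO livers. The groups were apart, with *Themis*-KO liver 3 closest to the WT livers. The mean rose from 76.4 ± 13.1 to 133.7 ± 27.7 CPM (log2 fold change 0.81, SE 0.18, adjusted p = 0.0386). The log2 fold change lay between 0.67 and 0.95 when any 1 liver was left out and was 0.56 with the mitochondrial type as a factor. A gene on the opposite strand, *Gm11175*, shares 919 bases with *Jund* and was at 7.80, 8.35 and 9.04 CPM in the WT livers and 16.8, 15.1 and 9.49 CPM in the *Themis*-KO livers. The sources used here do not say whether strand was used in counting, so the reads of overlapping genes on opposite strands may not be told apart.

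*Junb* (chromosome 8, 84974484 to 84978718, minus strand) encodes a JUN protein that is a weaker activator than c-JUN and can oppose it. Its level was 32.2, 26.3 and 40.1 CPM in the WT livers and 79.5, 59.0 and 27.2 CPM in the *Themis*-KO livers. *Themis*-KO livers 1 and 2 were above all WT livers, whereas liver 3 lay within the WT range. The log2 fold change of 0.75 (SE 0.35) did not pass the test (adjusted p = 0.186), and it was 0.39 without *Themis*-KO liver 1 and 0.46 with the mitochondrial type as a factor. *Prdx2*, which overlaps *Junb* on the opposite strand over 351 bases, differed little between groups (log2 fold change -0.04, adjusted p = 0.779). The summed level of the 3 JUN genes was 135, 151 and 203 CPM in the WT livers and 362, 302 and 226 CPM in the *Themis*-KO livers.

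FOS proteins do not form dimers with themselves and act only with a JUN partner. *Fos* (ENSMUSG00000021250; chromosome 12, 85473890 to 85477273, plus strand), the founding member and a standard readout of ERK signaling, was at 3.26, 1.39 and 2.53 CPM in the WT livers and at 10.7, 6.97 and 3.26 CPM in the *Themis*-KO livers. The groups were just apart, since the lowest *Themis*-KO liver and the highest WT liver, liver 3 and liver 1, had nearly the same level. The mean was 2.39 ± 0.940 CPM in WT and 6.96 ± 3.70 CPM in *Themis*-KO livers, and the log2 fold change of 1.54 (SE 0.45) did not pass the test (adjusted p = 0.0689, edgeR; 0.00440 by DESeq2).

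*Fosb* (chromosome 7, 19302696 to 19310051, minus strand), best known for its long-lived truncated product in neurons, was at 1.24, 0.720 and 0.197 CPM in the WT livers and at 4.72, 1.63 and 1.37 CPM in the *Themis*-KO livers. The lowest *Themis*-KO liver stood slightly above the highest WT liver. Its log2 fold change of 1.87 had an SE of 0.67 and did not pass the test (adjusted p = 0.109). With the mitochondrial type as a factor the value was 3.67, set against WT liver 3 alone, where *Fosb* had 5 counts. Without *Themis*-KO liver 1 it was 1.08, and without WT liver 1 it was 2.53.

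*Fosl1* (chromosome 19, 5447547 to 5455946, plus strand) encodes FRA-1, a FOS protein without a strong activation domain that is itself induced by AP-1. Its counts were 3, 0 and 13 in the WT livers and 295, 165 and 3 in the *Themis*-KO livers, or 0.138, 0 and 0.513 CPM against 12.5, 7.10 and 0.142 CPM. *Themis*-KO livers 1 and 2 held nearly all of the signal, and *Themis*-KO liver 3 was below WT liver 3. A count of 0 in WT liver 2 allows a level of up to 0.144 CPM (3 counts; counting error only). The mean was 30.4-fold higher in the *Themis*-KO livers, the largest ratio of the 10 genes, but the log2 fold change of 4.80 had an SE of 1.35 and did not pass the test (adjusted p = 0.0626; exact permutation test, two-sided, p = 0.2). Without WT liver 3 it was 6.45, without *Themis*-KO liver 1 it was 3.94, and with the mitochondrial type as a factor it was 3.68. The span of *Fosl1*, introns included, shares 2767 bases with that of *Ccdc85b* on the opposite strand, whereas the exons of *Fosl1* cover 2033 bases. *Ccdc85b* was at 35.3 to 38.8 CPM in the WT livers and 39.6 to 55.0 CPM in the *Themis*-KO livers.

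*Fosl2* (chromosome 5, 32135801 to 32157842, plus strand), which encodes FRA-2, was the most abundant FOS transcript in CPM in every liver. Its level was 16.0, 12.8 and 16.7 CPM in the WT livers and 38.4, 26.3 and 16.5 CPM in the *Themis*-KO livers. *Themis*-KO livers 1 and 2 were above the WT livers, and liver 3 was among them. The fitted log2 difference was 0.84 (SE 0.28, adjusted p = 0.0908; 0.0202 by DESeq2), and 0.49 without *Themis*-KO liver 1. The 4 FOS genes together were at 20.6, 14.9 and 20.0 CPM in the WT livers and at 66.3, 42.0 and 21.3 CPM in the *Themis*-KO livers. As a share of the JUN sum this was 15.2%, 9.87% and 9.82% in the WT livers and 18.3%, 13.9% and 9.44% in the *Themis*-KO livers, and these ranges overlapped.

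*Atf3* (ENSMUSG00000026628; chromosome 1, 191170296 to 191218039, minus strand) encodes a stress-induced member of the ATF/CREB family that as a homodimer mostly represses transcription and also pairs with JUN proteins. Its level was 2.29, 2.93 and 4.38 CPM in the WT livers and 19.1, 14.3 and 7.79 CPM in the *Themis*-KO livers. The lowest *Themis*-KO liver was 1.78-fold above the highest WT liver, the widest gap of the 10 genes. The mean rose from 3.20 ± 1.07 to 13.7 ± 5.69 CPM (log2 fold change 2.09, SE 0.36, adjusted p = 0.0241, edgeR). The log2 fold change lay between 1.77 and 2.40 when any 1 liver was left out and was 1.65 with the mitochondrial type as a factor (adjusted p = 0.423). With 3 livers against 3, the exact two-sided permutation test cannot go below p = 0.1, which *Fos*, *Fosb*, *Jun*, *Jund* and *Atf3* each reached.

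*Egr1* and *Ier3* are immediate early genes outside the AP-1 dimer. *Egr1* encodes a zinc finger transcription factor induced by ERK through SRF and ELK proteins, and it lies on chromosome 18 (34859823 to 34864984, plus strand). It was at 15.7, 9.84 and 45.9 CPM in the WT livers and at 34.5, 22.1 and 18.7 CPM in the *Themis*-KO livers. WT liver 3 was the highest of all 6, and the groups overlapped fully (23.8 ± 19.4 against 25.1 ± 8.32 CPM). The fitted log2 difference was 0.067 (SE 0.52, adjusted p = 0.939). It was -0.87 with the mitochondrial type as a factor and 0.97 without WT liver 3, so these data give no direction for *Egr1*.

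*Ier3* (chromosome 17, 35821684 to 35822923, plus strand) encodes IEX-1, a small protein linked to cell survival and the control of ERK dephosphorylation. It was at 1.19, 1.34 and 4.54 CPM in the WT livers and at 11.3, 8.04 and 2.98 CPM in the *Themis*-KO livers. *Themis*-KO livers 1 and 2 were above the WT livers, and *Themis*-KO liver 3 was below WT liver 3. The log2 fold change of 1.64 (SE 0.61) did not pass the test (adjusted p = 0.117). It was 2.55 without WT liver 3 and 0.72 with the mitochondrial type as a factor.

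**Figure D2:**
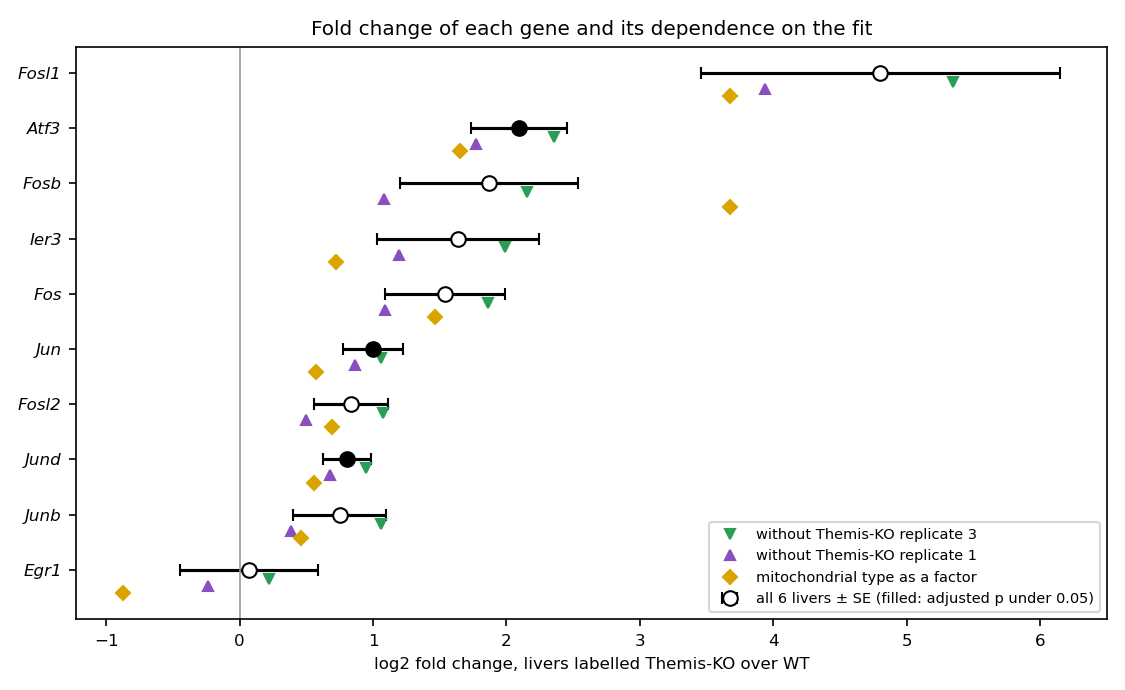
Fitted log2 fold change of each gene (horizontal axis, livers labelled Themis-KO over WT) in the edgeR fit on all 6 livers with its SE as a bar (filled where the adjusted p is under 0.05), and in fits without *Themis*-KO liver 1 or 3 or with the mitochondrial type as a factor. Values stay above 0 in the fits drawn for all genes but *Egr1*, which falls on both sides of 0, and *Fosl1* has the largest SE (1.35).

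Per kilobase of exon sequence, which lets genes be compared, the 3 JUN genes were the most abundant of the 10 in both groups. *Jund* was at 45.8 ± 7.87 CPM per kb in the WT livers and 80.1 ± 16.6 CPM per kb in the *Themis*-KO livers (SD, n = 3). *Jun* followed, at 16.9 ± 5.49 and 33.8 ± 5.17 CPM per kb, then *Junb*, at 14.3 ± 3.01 and 24.0 ± 11.5 CPM per kb. *Jun* and *Junb* did not differ beyond their spread within either group, whereas *Jund* lay above both by more than the SDs. *Egr1* came next in the WT livers, at 5.31 ± 4.32 CPM per kb, ahead of *Ier3* (2.09 ± 1.67), *Fosl2* (1.57 ± 0.217), *Atf3* (1.49 ± 0.497) and *Fos* (1.02 ± 0.400). The ranges of neighbours in this order overlapped. *Fosb* (0.115 CPM per kb) and *Fosl1* (0.107 CPM per kb) were lowest in the WT livers. In the *Themis*-KO livers *Ier3* (6.59 ± 3.73 CPM per kb) and *Atf3* (6.38 ± 2.64 CPM per kb) were at the level of *Egr1* (5.59 ± 1.86 CPM per kb). The mean of *Fosl1* (3.24 ± 3.06 CPM per kb) was near those of *Fos* and *Fosl2* (2.96 ± 1.57 and 2.80 ± 1.13 CPM per kb). By liver, *Fosl1* was at 6.17, 3.49 and 0.0697 CPM per kb, above both in *Themis*-KO livers 1 and 2 and below both in liver 3.

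The 10 genes shared an order among the livers. In all 10, *Themis*-KO liver 1 was the highest and liver 3 the lowest of their group, an order found in 22.5% of all genes tested and in 43.3% of the genes called higher. *Themis*-KO liver 1 was the highest of all 6 livers in 9 genes, with WT liver 3 ahead for *Egr1*. WT liver 3 was the highest WT liver in 8 of the 10, against 33.0% of all genes and 70.5% of the genes called higher. *Themis*-KO livers 1 and 2 each stood above all WT livers in 9 of the 10 genes, where they did in 38.8% and 37.4% of all genes tested. *Themis*-KO liver 3 did so in 5 of the 10, against 31.3% of all genes. The numbers name livers and have no order in time or dose. The 10 genes are measured in the same 6 livers, so their common order is a description of these livers.

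**Figure D3:**
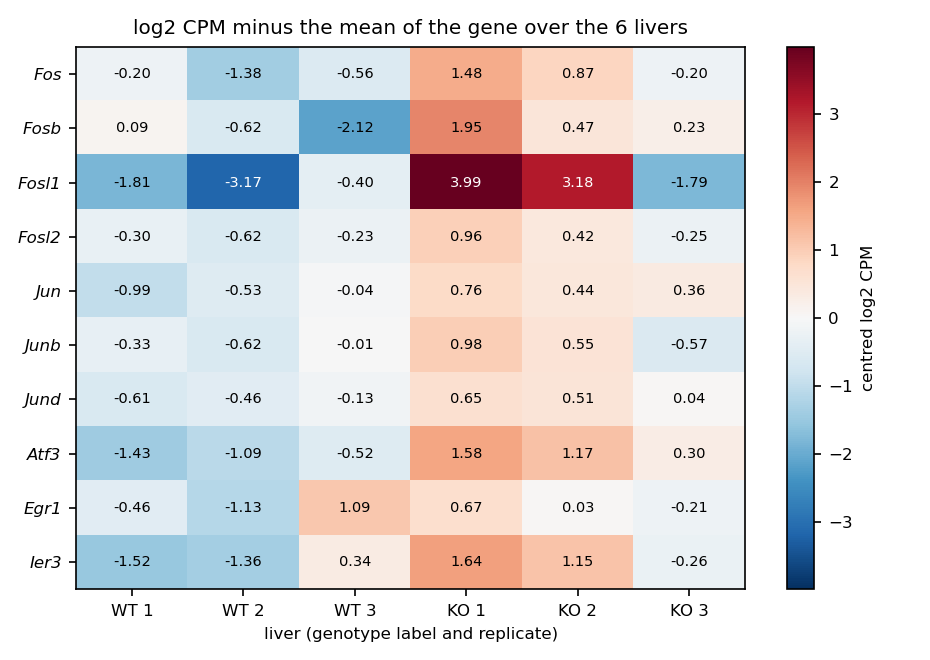
Level of each gene (rows) in each liver (columns) as log2 CPM minus the mean of the gene over the 6 livers, in color. *Themis*-KO liver 1 is highest and liver 3 lowest of the *Themis*-KO livers in every row, and WT liver 3 stands out for *Egr1*.

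Some of the other immediate early genes rose. A list of such genes, chosen with earlier results of these data known, had 36 that were tested, of which 8 rose and none fell (background 4.97% and 4.14%), with a median log2 fold change of 0.63. At an unadjusted p under 0.05, 18 were higher and 1 was lower, where 16.8% and 13.9% of all genes were. The largest log2 fold changes were those of *Egr2* (1.98, adjusted p = 0.0407), a paralog of *Egr1*, and *Klf6* (1.94, adjusted p = 0.0304), a zinc finger factor of the liver and of stellate cells. *Egr2* was at 0.505, 1.39 and 1.22 CPM in the WT livers and 6.03, 4.17 and 2.17 CPM in the *Themis*-KO livers, and *Klf6* was at 23.4, 22.2 and 33.3 CPM against 155.6, 98.2 and 49.6 CPM. Both showed the order of the AP-1 genes, with *Themis*-KO liver 1 highest and liver 3 lowest, as did 23 of the 36.

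*Ccn1* and *Ccn2* encode secreted matrix proteins that respond to YAP and SRF. *Ccn1* was at 8.35, 9.74 and 10.1 CPM in the WT livers and 53.4, 31.4 and 12.8 CPM in the *Themis*-KO livers (log2 fold change 1.79, adjusted p = 0.0464). *Ccn2* differed in its order, at 14.3, 15.2 and 12.1 CPM against 31.1, 30.0 and 36.6 CPM, with *Themis*-KO liver 3 highest (log2 fold change 1.23, SE 0.12, adjusted p = 0.00926). *Ccn2* was past the threshold in each of the 6 fits that leave out a liver. *Arc*, a gene of neuronal activity, was called on 4 to 14 counts per liver (log2 fold change 1.52, adjusted p = 0.0423). The remaining 3 called genes, named after their values were seen, were *Dusp1*, which encodes a phosphatase of MAP kinases, *Ier5* and *Rhob*.

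Kinases and factors upstream of these genes were read from a further list. Of 31 tested genes of the MAP kinase, SRF and ELK pathways, 2 rose and none fell, a share near that of all genes (4.97% and 4.14%), with a median log2 fold change of 0.10. They were *Mapk3*, which encodes ERK1 (0.40, SE 0.10, adjusted p = 0.0426), and the SRF coactivator *Mrtfb* (0.59, SE 0.13, adjusted p = 0.0398). *Mapk3* was at 38.7, 44.4 and 40.1 CPM in the WT livers and 56.6, 49.2 and 57.1 CPM in the *Themis*-KO livers. These are transcript levels, and kinase activity was not measured here.

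Of the other basic leucine zipper genes, which include partners of JUN and ATF3, 4 of 33 tested rose and none fell, where 4.97% and 4.14% of all genes did (median log2 fold change 0.23). *Batf3*, a JUN partner of dendritic cells, was at 0.780, 0.816 and 0.868 CPM in the WT livers and 2.34, 1.42 and 1.84 CPM in the *Themis*-KO livers (log2 fold change 1.18, adjusted p = 0.0405). *Ddit3* (0.57, adjusted p = 0.0388) and *Atf4* (0.52, adjusted p = 0.0482), both of the integrated stress response in which *Atf3* is also induced, rose by less, as did *Cebpd* of the acute phase response (0.53, adjusted p = 0.0407). The groups did not overlap for any of the 4, as for all 721 genes called higher, so this adds nothing to the calls.

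Genes known as targets of AP-1 had the highest median of the lists outside the 10 genes. Of 20 listed, 17 were tested, 4 rose and none fell (4.97% and 4.14% of all genes), and the median log2 fold change was 1.21. At an unadjusted p under 0.05, 16 of the 17 were higher, where 16.8% of all genes were. The other 1, *Vegfa* (-0.31, adjusted p = 0.0850, named after its value was seen), was lower, as 13.9% of all genes were. *Mmp13*, a collagenase with a classical AP-1 element, was at 1.38, 1.54 and 2.56 CPM in the WT livers and 11.9, 6.41 and 4.30 CPM in the *Themis*-KO livers (log2 fold change 2.03, adjusted p = 0.0326). *Timp1*, an inhibitor of such proteases, followed the same order (0.872, 0.768 and 1.62 CPM against 4.89, 4.52 and 2.13 CPM; log2 fold change 1.80, adjusted p = 0.0386). *Cdkn1a*, which encodes the cell cycle inhibitor p21 and is also a target of p53, was at 7.61, 8.54 and 18.8 CPM against 35.5, 48.7 and 34.1 CPM (log2 fold change 1.75, adjusted p = 0.0297). *Ezr*, a linker of membrane and actin, was the last of the 4 (0.84, adjusted p = 0.0405). *Themis*-KO liver 1 was highest and liver 3 lowest in 11 of the 17 genes.

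The calls in these lists rested on the same livers as those of the 10 genes. Without *Themis*-KO liver 3, 22 of the 36 other immediate early genes, 15 of the 33 basic leucine zipper genes, 12 of the 31 upstream genes and all 17 tested targets were called, of which 2, 3 and 1 in the last 3 lists were lower. Calls were common in that fit, with 2228 genes higher and 2039 lower of all 14806 tested. Without WT liver 1, WT liver 2, *Themis*-KO liver 1 or *Themis*-KO liver 2, *Ccn2* was the single call in all 4 lists. Without WT liver 3, the 4 lists held 5, 1, 1 and 5 calls, where 481 genes were higher and 369 lower of all 14830 tested.

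**Figure D4:**
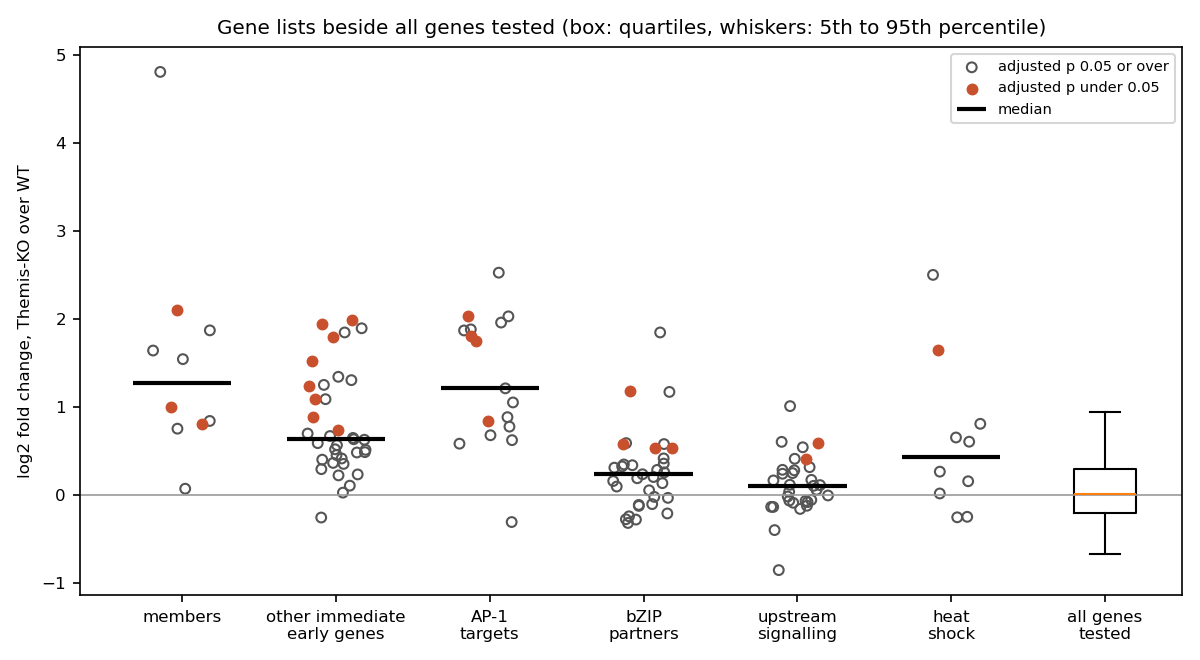
Log2 fold change (vertical axis, livers labelled Themis-KO over WT) of each tested gene of the lists, beside a box for all genes tested. Filled points are genes past an adjusted p of 0.05; the 10 genes and the AP-1 targets have medians of 1.27 and 1.21, against 0.0095 over all genes tested.

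Genes with the most similar pattern were sought among 13033 genes by the root mean square difference of centred log2 CPM over the 6 livers. For *Fos* the nearest was *Dusp4* (0.10), which encodes a nuclear phosphatase of ERK and JNK, followed by *Glis3* and *Emilin2*. *Dusp4* was at 2.75, 1.10 and 2.41 CPM in the WT livers and 9.05, 6.71 and 3.07 CPM in the *Themis*-KO livers, close to *Fos* in each. For *Atf3* the nearest were *F2rl1* (0.081), the protease-activated receptor PAR2, *Lgals3* (0.149), which encodes galectin-3, and the AP-1 target *Mmp13* (0.158). For *Jun* they were *Aldh18a1* (0.075), *Nxn* and *Plcg2*, and for *Jund* they were *Ptpn21* (0.046), *Cblb* and *Sting1*. Within the 10 genes, *Fosl2* and *Junb* were 0.167 apart and *Jun* and *Jund* 0.214.

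Markers of several cell types differed between the groups in the same libraries. Beside the calls given here, 4.97% of all genes tested rose and 4.14% fell. The summed level of the hepatocyte markers was 68076 to 73955 CPM in the WT livers and 54504 to 57526 CPM in the *Themis*-KO livers, and 3 of its 11 genes fell. Stellate cell and fibroblast markers summed to 452 to 516 CPM against 688 to 739 CPM, and 6 of 11 rose, *Col1a1*, *Col1a2* and *Col3a1* among them. Cholangiocyte markers summed to 170.0 to 210 CPM against 403 to 637 CPM, mostly from *Spp1*, which other cells also express, and 2 of 9 rose. Macrophage markers summed to 353 to 620 CPM against 580 to 749 CPM, with overlap, and 3 of 12 rose. Endothelial markers summed to 316 to 357 CPM against 367 to 407 CPM, without overlap, and 1 of 10 rose. Of the 7 T cell markers 1 fell, and none of the 8 B cell markers was called (none at an unadjusted p under 0.05 and none by DESeq2).

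Neutrophil markers were at low levels, and their sum was higher in *Themis*-KO livers 1 and 2 than in the WT livers. Their summed level was 6.88, 6.86 and 10.5 CPM in the WT livers and 23.5, 16.7 and 8.69 CPM in the *Themis*-KO livers, in the same order among *Themis*-KO livers as the 10 genes. Of the 4 neutrophil markers tested none was called. All 4 were higher at an unadjusted p under 0.05, where 16.8% of all genes were, and *Csf3r* was called by DESeq2. The granule genes *Mpo*, *Elane*, *Camp* and *Ngp* were not tested and were at 0 in at least 1 liver. *Elane* went the other way, with 3, 10 and 7 counts in the WT livers and 0, 0 and 5 in the *Themis*-KO livers. Of 10 heat shock genes, which respond to heat and protein damage, 1 rose, where 4.97% of all genes did. It was *Hspa1b* (log2 fold change 1.64, adjusted p = 0.0367), which has a near-identical copy, so its reads may be split. The list's median log2 fold change was 0.43. The part of cell composition in the differences of the 10 genes was not tested. In bulk RNA, more cells of a type that carries a transcript and more transcript per cell cannot be told apart.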

How the data were processed

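RNA of 3 WT and 3 *Themis*-KO livers was compared, grouped by the sample labels. Poly(A) RNA libraries were sequenced paired-end by the authors. Their processing notes name cutadapt 2.3, STAR 2.7.8a and RSEM 1.3.3 and the build GRCm38, and the deposited table holds estimated counts of each gene in each liver, not normalized by the authors. RSEM shares reads among similar genes, so near-identical copies cannot be read independently. The release of the annotation and the use of strand are not given in the sources used here.

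Counts were rounded to whole numbers and analysed in R 4.3.3. The main test was edgeR 4.0.16 (filterByExpr, TMM, glmQLFit and glmQLFTest) on all 6 livers with the genotype label as the sole factor, with Benjamini-Hochberg adjustment over 14496 genes and a threshold of 0.05. P-values measure the spread between these liver samples. DESeq2 1.42.0, other scalings and filters, the mitochondrial type or the replicate number as a factor, and each liver left out were alternatives. Both tools were tested on simulated counts for 14301 genes. Of 98 genes changed by 1.5 and 99 changed by 2 on the log2 scale, edgeR recovered 88 and 97, with 12 false calls among 197 in all. DESeq2 recovered 90 and 98, with 33 false calls among 221 in all, so it made more false calls there than edgeR. The simulated livers of a group shared the same mean for each gene, so the mitochondrial split was not modelled, and recovery in these livers may differ. CPM values were computed without a prior count, centred log2 values with a prior of 2. No 2 libraries agreed within sampling noise. *Themis*-KO livers 1 and 2 were the closest pair, with a chi-square per degree of freedom of 9.8. Every other pair was at 27.6 or above.

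The 10 genes, the lists and the tests were chosen with earlier results of these data known, and the lists are textbook groups, not independent evidence. Named from each list were up to 5 called genes in each direction with the largest fold change, and the 3 nearest genes for 4 of the 10. Coordinates and exon lengths came from GENCODE vM21, promoter windows from RefSeq. Bases shared by overlapping genes were counted on whole gene spans, introns included. Figures were drawn with matplotlib 3.10.9.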

Additional observations from a re-analysis of the deposited data

How the results depend on the processing

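All 10 genes were tested in each fit except the filter of 10 counts in every liver, which left 8. Of 138 values of a gene in an alternative fit, 134 were above 0. The exceptions were *Egr1* with the mitochondrial type as a factor (-0.87) and without WT liver 1 (-0.16), WT liver 2 (-0.30) or *Themis*-KO liver 1 (-0.24), where the fits with a liver left out ranged from -0.30 to 0.97. The number of the 10 genes called higher, 3 in the main analysis, was 8 without a filter, 7 with DESeq2, 0 with the mitochondrial type and 0 to 9 with a liver left out, and none was called lower in any fit. The other immediate early genes called, 8 in the main analysis, were 13 without a filter, 0 with the mitochondrial type and 1 to 22 with a liver left out. The basic leucine zipper genes called, 4 in the main analysis, were 7 without a filter, 9 with DESeq2, 9 with scaling by total counts, 0 with the mitochondrial type and 0 to 15 with a liver left out. The upstream genes called, 2 in the main analysis, were 4 without a filter, 4 with DESeq2, 4 with total counts, 1 with upper quartile scaling, 0 with the mitochondrial type and 0 to 12 with a liver left out. The AP-1 targets called, 4 in the main analysis, were 13 without a filter, 13 with DESeq2, 9 with total counts, 0 with the mitochondrial type and 0 to 17 with a liver left out. Over all genes tested, the calls were 721 higher and 600 lower in the main analysis. They were 1212 and 967 without a filter and 1273 and 1084 with DESeq2. With total counts they were 1449 and 387, and with upper quartile scaling 709 and 514. With a liver left out they ranged from 8 to 2228 higher and from 12 to 2039 lower. The cause of these shifts was not tested. Scaling by total counts moved the median of all genes from 0.0095 to 0.15 and the share of higher genes among all calls from 54.6% to 78.9%, and it called the same *Jun*, *Jund* and *Atf3*.

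With the replicate number as a block, 0 of the 10 genes, 1 other immediate early gene (*Ccn2*), 0 basic leucine zipper genes, 0 upstream genes and 0 AP-1 targets were called, and the calls over all genes fell from 721 to 17 higher and from 600 to 45 lower. The study speaks of pairs of livers, but no label ties a pair to a number. The numbers were not taken to pair the livers: deviations of same-numbered livers correlated at 0.000277, -0.241 and -0.157. At an unadjusted p under 0.05, 7 of the 10 genes were higher under the block, where 13.4% of all genes were. In the WT livers the counts of *Fosl1* (0 to 13) and *Fosb* (5 to 27) were the lowest of the 10 genes.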
